A study of Mus musculus with 127 samples.

Results

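Single-cell transcriptomes of 5 cells that the authors' deposited class file calls Myelo-1 were compared with those of 72 cells it calls Myelo-2, out of 127 cells in all. The members were taken by class name alone, so 77 cells entered the comparison. All cells came from bone marrow of wild-type C57BL/6 mice that was enriched with CD117 (Kit receptor) beads, sorted for CD11b within the gate named GMP-P, and captured on the Fluidigm C1 system. The labels give 3 gates, with 46 Ly6g high, 41 Ly6g low and 40 cells labelled CD11b+ only, and name no animal, age, culture or treatment. Of the Myelo-1 cells, 4 were Ly6g low (cells 14, 15, 41 and 42), 1 was CD11b+ (cell 40) and 0 were Ly6g high, whereas Myelo-2 held 31 Ly6g low, 14 CD11b+ and 27 Ly6g high cells. How the authors assigned the classes is not given in the sources used here, and the classes may rest on the same values. With no animal named, each class is 1 set of cells, so the differences below are descriptions with no test and no replicate check, and SDs give the spread over cells.

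Neutrophils fill their granules in sequence. Primary granules form first, in promyelocytes, and hold myeloperoxidase and serine proteases. Specific granules form later, in myelocytes, and hold cathelicidin, lactoferrin and lipocalin 2, and genes of the latest granules and of surface receptors follow. The study follows single cells along the route to granulocytes, and the comparison asks which of these transcripts the Myelo-1 cells carried. Levels are given in TPM, a length-corrected share of the transcripts of a cell, and a gene counted as detected in a cell at 1 TPM or more.

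The Myelo-1 cells had a median of 3514 genes detected (range 2651 to 4174), and the Myelo-2 cells a median of 2239.5 (range 1359 to 4503). Only 9 of the 72 Myelo-2 cells reached the lowest Myelo-1 cell in this measure. No doublet caller was run, and the part of the number of genes detected in the differences below was not tested. Genes detected in 25% or more of the cells of at least 1 class were called measured, and there were 4951 of them. Ratios are log2 ratios of the mean TPM of Myelo-1 over Myelo-2 after adding 1 TPM to each mean, and understate differences of genes near 1 TPM. Their median over the measured genes was 0.53, which is the level to set beside each list median below. Of the measured genes, 35.1% (1736) were at least 2-fold higher and 15.3% (757) at least 2-fold lower in Myelo-1. After centring on that median, the counts were 1092 higher and 1150 lower.

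The promoters of 6 granule genes are shown first, because these genes stood at 3 kinds of level in the Myelo-1 cells. Elane and Prtn3 were far above most Myelo-2 cells, Camp and Ngp were already within or near the range of Myelo-2, and Ltf and Lcn2 were below nearly every Myelo-2 cell. The sequences are from RefSeq (build GRCm38.p6), cover 250 bases before to 50 after each gene's start, and run 5′ to 3′ along the gene's strand. Capitals mark matches to TTGCNNAA, a core of the C/EBP motif, or to GAGGAA, a core of the PU.1 motif, each searched on both strands.
Elane, chr10:79886062-79886361, plus strand: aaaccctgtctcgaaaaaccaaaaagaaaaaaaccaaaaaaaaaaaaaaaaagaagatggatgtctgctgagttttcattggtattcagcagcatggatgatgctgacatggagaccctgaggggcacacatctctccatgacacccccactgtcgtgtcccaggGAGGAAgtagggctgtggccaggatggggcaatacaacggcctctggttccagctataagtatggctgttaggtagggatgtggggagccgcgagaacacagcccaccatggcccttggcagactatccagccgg
Prtn3, chr10:79879417-79879716, plus strand: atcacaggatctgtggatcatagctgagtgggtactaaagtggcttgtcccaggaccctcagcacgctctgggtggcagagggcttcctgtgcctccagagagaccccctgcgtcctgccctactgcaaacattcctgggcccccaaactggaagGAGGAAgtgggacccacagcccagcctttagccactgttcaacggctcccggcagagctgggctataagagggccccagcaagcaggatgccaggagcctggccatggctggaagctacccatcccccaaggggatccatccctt
Camp, chr9:109849407-109849706, minus strand: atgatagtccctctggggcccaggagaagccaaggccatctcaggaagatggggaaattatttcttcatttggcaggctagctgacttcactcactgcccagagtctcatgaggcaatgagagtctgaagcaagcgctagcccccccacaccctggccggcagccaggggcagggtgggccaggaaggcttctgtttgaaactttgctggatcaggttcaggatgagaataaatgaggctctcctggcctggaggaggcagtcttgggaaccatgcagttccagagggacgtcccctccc
Ngp, chr9:110419558-110419857, plus strand: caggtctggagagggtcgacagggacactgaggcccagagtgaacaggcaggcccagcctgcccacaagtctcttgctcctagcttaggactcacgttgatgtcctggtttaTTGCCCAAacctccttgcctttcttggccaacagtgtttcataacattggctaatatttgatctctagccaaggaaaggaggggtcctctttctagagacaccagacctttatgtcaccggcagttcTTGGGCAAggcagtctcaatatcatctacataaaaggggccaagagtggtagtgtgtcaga
Ltf, chr9:111019042-111019341, plus strand: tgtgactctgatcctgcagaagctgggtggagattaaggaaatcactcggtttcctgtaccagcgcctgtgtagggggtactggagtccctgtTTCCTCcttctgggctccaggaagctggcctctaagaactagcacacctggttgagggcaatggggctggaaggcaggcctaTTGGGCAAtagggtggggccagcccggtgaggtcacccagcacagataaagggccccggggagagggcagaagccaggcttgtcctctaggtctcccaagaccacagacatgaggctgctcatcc
Lcn2, chr2:32387690-32387989, minus strand: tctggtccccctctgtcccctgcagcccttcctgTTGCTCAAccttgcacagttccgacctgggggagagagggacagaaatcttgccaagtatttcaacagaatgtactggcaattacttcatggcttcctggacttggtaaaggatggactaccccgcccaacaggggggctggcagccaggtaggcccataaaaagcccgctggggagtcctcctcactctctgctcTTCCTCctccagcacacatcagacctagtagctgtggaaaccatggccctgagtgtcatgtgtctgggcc

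The Elane and Prtn3 promoters each held 1 match to GAGGAA, starting at positions -85 and -95 from the gene's start, and 0 matches to TTGCNNAA. Ngp held 2 matches to TTGCNNAA and 0 to GAGGAA, Ltf and Lcn2 held 1 of each, and Camp held neither. Over 32851 promoters of this length, 10.8% held TTGCNNAA and 28.3% held GAGGAA. A match describes these letters only.

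Most transcripts of primary granules had higher means in Myelo-1, with overlap between the classes for each gene. Elane, the neutrophil elastase, was at 13318, 17573, 28465 and 9882 TPM in Ly6g low cells 14, 15, 41 and 42 and at 18532 TPM in CD11b+ cell 40. In Myelo-2 its lowest value was 0, its median 0.83 and its highest 15314 TPM. Only 1 Myelo-2 cell, Ly6g low cell 36, lay within the Myelo-1 range. The means were 17554 ± 7015 TPM (SD over 5 cells) and 352 ± 1943 TPM (SD over 72 cells), a log2 ratio of 5.64. Cell 36 gave 60.5% of the Myelo-2 sum, and without it the log2 ratio was 6.95.

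Mpo, myeloperoxidase, stood at 247, 4992, 12665 and 3681 TPM in Ly6g low cells 14, 15, 41 and 42 and at 4091 TPM in CD11b+ cell 40. The Myelo-2 cells ran from 0 over a median of 0.61 to 856 TPM, and 3 of them reached the lowest Myelo-1 cell. Cell 14 was the low Myelo-1 cell for Mpo, while its Elane was above that of cell 42. Prtn3, proteinase 3, was at 2032, 3034, 4769, 3124 and 3233 TPM in the same order of cells. Its Myelo-2 median was 0 and the highest Myelo-2 value was 2801 TPM, again in cell 36. Ctsg, the protease cathepsin G, was at 0.71, 534, 1072, 142 and 156 TPM, so cell 14 was below the detection minimum for it and cell 41 was highest. Its Myelo-2 median was 0 and its highest value 150 TPM.

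Of the 11 genes on the primary granule list, 10 were measured and 9 were at least 2-fold higher in Myelo-1 (35.1% of all measured genes were), with a list median of 3.98. In all 10 every Myelo-1 cell was above the Myelo-2 median, which held for 14.3% of all measured genes. Since genes can pass the filter through the class where they are high, and the classes may rest on these genes, these counts are no support for the difference. Ms4a3, a membrane protein of granulocyte progenitors, was at 1479, 1955, 1920, 501 and 2335 TPM and had a Myelo-2 median of 122 TPM (highest 2663). It overlapped more than the proteases did, with 23 Myelo-2 cells at or above the lowest Myelo-1 cell. Srgn, the proteoglycan serglycin that packs granule proteases, had a mean of 1629 TPM in Myelo-1 and 108 TPM in Myelo-2. The granule membrane protein Nkg7 had means of 1724 and 139 TPM, and the serine protease Prss57 of 219 and 22.4 TPM. The cystatin Cst7 was at 169 and 9.21 TPM, a log2 ratio of 4.06 that was 2.88 without cell 41. Serpinb1a, an inhibitor of these proteases, differed least, at 2554 and 1399 TPM (log2 ratio 0.87). Ctsc, the peptidase that activates the proteases, was not measured, with 5 TPM in cell 42 and 0 in the other Myelo-1 cells. Against only the 7 Myelo-2 cells whose number of genes detected lay within the Myelo-1 range, a set that includes cell 36, the list median was 2.37, Elane stood at 2.48 and Nkg7 at 0.79.

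**Figure D1:**
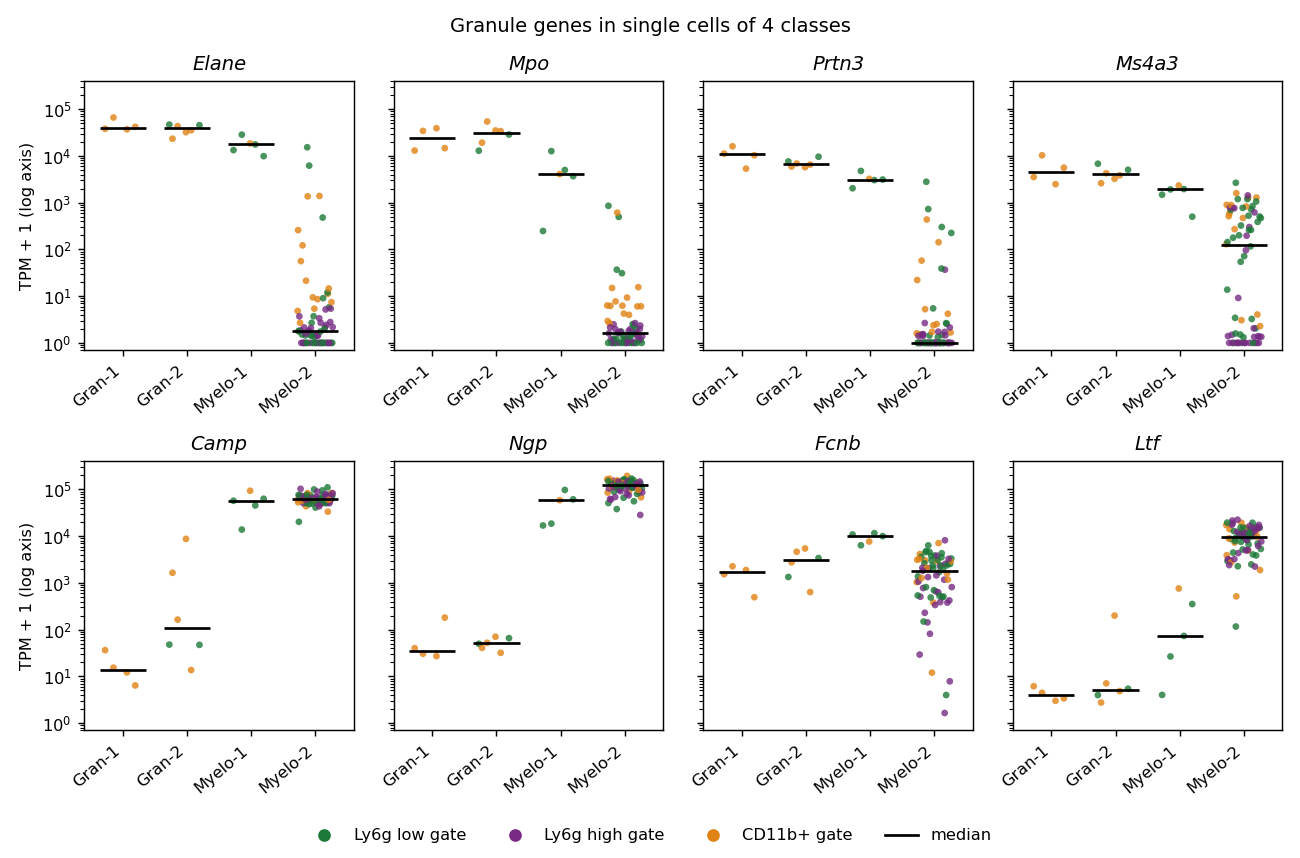
TPM plus 1 on a log axis for 8 granule genes, with 1 point per cell coloured by gate and a bar at the class median, in Gran-1 (4 cells), Gran-2 (6), Myelo-1 (5) and Myelo-2 (72). Elane, Mpo, Prtn3 and Ms4a3 step down from Gran to Myelo-1 to Myelo-2, Camp and Ngp are high in both Myelo classes, Fcnb is highest in Myelo-1, and Ltf is high in Myelo-2 only.

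The specific granule list did not move as 1 block. Camp, the cathelicidin precursor, was at 57226, 45439, 13843 and 63151 TPM in Ly6g low cells 14, 15, 41 and 42 and at 93780 TPM in CD11b+ cell 40. The Myelo-2 cells ran from 20283 over a median of 62230 to 110752 TPM. Of the 5 Myelo-1 cells, 4 lay within that range and cell 41 lay below it, and the log2 ratio of the means was -0.23, or 0.02 without cell 41. Ngp, a cystatin-related granule protein, was at 16939, 97434, 18545, 61330 and 58836 TPM, against a Myelo-2 range of 28420 to 194960 TPM with a median of 122243 TPM. Cells 14 and 41 were below every Myelo-2 cell for Ngp, and the log2 ratio was -1.22.

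Ltf and Lcn2 stood lower. Ltf, lactoferrin, was at 3.02, 72.5, 25.7 and 352 TPM in Ly6g low cells 14, 15, 41 and 42 and at 760 TPM in CD11b+ cell 40. In Myelo-2 it was never below 116 TPM, its median was 9602 and its highest value 22502 TPM. Only 2 Myelo-2 cells were at or below the highest Myelo-1 cell, and the log2 ratio was -5.34. Lcn2, the siderophore-binding lipocalin 2, was at 2329, 3343, 1191, 4505 and 1923 TPM, and the lowest Myelo-2 cell was at 4738 TPM (median 14491, highest 28856). It was the 1 gene among 4951 (0.0202%) with every Myelo-1 cell below every Myelo-2 cell, and 0 genes (0%) had every Myelo-1 cell above every Myelo-2 cell. The log2 ratio of Lcn2 was -2.52. Orm1, the plasma carrier protein orosomucoid, was listed at 0 in all 5 Myelo-1 cells and had a Myelo-2 median of 112 TPM with 58 of 72 cells detected.

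Fcnb, the lectin ficolin B, went the other way. It was at 10862, 11581, 6379 and 10014 TPM in Ly6g low cells 14, 15, 41 and 42 and at 7667 TPM in CD11b+ cell 40. The Myelo-2 cells had a lowest value of 0.65, a median of 1759 and a highest value of 8165 TPM, and 2 of them reached the lowest Myelo-1 cell. The means were 9301 ± 2200 TPM (5 cells) and 2023 ± 1748 TPM (72 cells), a log2 ratio of 2.20. Against the Myelo-2 cells matched in number of genes detected it was 1.24.

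Of the 18 genes on the specific granule list 17 were measured, of which 1 (Fcnb) was at least 2-fold higher, 8 were at least 2-fold lower (15.3% of all measured genes were) and 8 lay between, with a list median of -0.94. Orm1 counts among the 8 lower genes. Since it was at 0 in every Myelo-1 cell, the size of its ratio depends on the added 1 TPM and is not given. The 5 genes Ngp, Ltf, Lcn2, Orm1 and 1100001G20Rik (Wfdc21) had every Myelo-1 cell below the Myelo-2 median, which held for 0.828% of all measured genes. Genes with a Myelo-2 median of 0, such as Prtn3, cannot meet this and lower that share, and the classes may rest on these genes. The count is therefore no support for the difference. Chil3, a chitinase-like protein, was at 7075, 5549, 1182, 18600 and 2491 TPM, lower than its Myelo-2 median of 18202 TPM in all cells but cell 42. Cd177, a surface protein of a subset of neutrophils, divided the Myelo-1 cells, with 510, 1167 and 514 TPM in cells 14, 42 and 40 and 1.65 and 0.77 TPM in cells 15 and 41. The integrin Itgb2l, the haemoglobin scavenger Hp (haptoglobin) and the peptidoglycan-binding Pglyrp1 were near their Myelo-2 levels, with log2 ratios of 0.59, 0.38 and 0.32. Lrg1 and Ceacam1 stood at -0.10 and -0.17, Mcemp1 at -0.94 and Abca13 at -0.12. Ceacam10, at or below 0.42 TPM in every Myelo-1 cell, also had a Myelo-2 median of 0. Olfm4 was not measured.

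Elane and Camp together, each at 1000 TPM or more, were found in 5 of 5 Myelo-1 cells and 4 of 72 Myelo-2 cells (5.56%). Among Gran cells the pair was found in 0 of 4 Gran-1 and 2 of 6 Gran-2 cells. At 1 TPM or more it was in 33 of 72 Myelo-2, 4 of 4 Gran-1 and 6 of 6 Gran-2 cells, so the contrast depends on the threshold. Both genes were named beforehand as markers of these classes, so these counts describe the cells and are no support for a difference. Elane and Ltf together at 1000 TPM or more were found in 0 of 5 Myelo-1 cells and in 2 of 72 Myelo-2 cells. The 4 Myelo-2 cells with the most Elane were Ly6g low cells 36 and 28, at 15314 and 6199 TPM, and CD11b+ cells 7 and 20, at 1390 and 1366 TPM. Cell 36 also had the lowest Ltf and Lcn2 of its class, at 116 and 4738 TPM, but carried Ifitm6 at 343 and Ifitm3 at 188 TPM. Cells 28, 7 and 20 had Ltf at 2273, 4934 and 515 TPM.

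The Gran-1 (4 cells) and Gran-2 (6 cells) classes gave a second reference, since they carry primary granule transcripts at high level. The primary granule list took a median of 10.02% of each cell's TPM in Gran-1, 9.92% in Gran-2, 3.37% in Myelo-1 (range 2.16 to 5.93) and 0.198% in Myelo-2 (range 0.0051 to 3.15). The specific granule list took 0.435%, 0.886%, 17.04% (4.91 to 17.6) and 24.5% (9.37 to 31.2). Cell 41 had the highest primary share and the lowest specific share of the Myelo-1 cells, at 5.93% and 4.91%. For 9 of the 10 measured primary granule genes and 12 of the 17 specific granule genes the Myelo-1 mean lay between the mean of the 10 Gran cells and the Myelo-2 mean, as it did for 39.2% of all measured genes. The Gran classes were chosen for their primary granule transcripts, and the classes may rest on these genes. These counts are therefore no support for an intermediate position. Fcnb was 1 of 593 genes (12%) with a Myelo-1 mean at least 2-fold above both the Gran and the Myelo-2 mean. Its lowest Myelo-1 cell (6379 TPM) was above the highest Gran cell (5451 TPM).

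**Figure D2:**
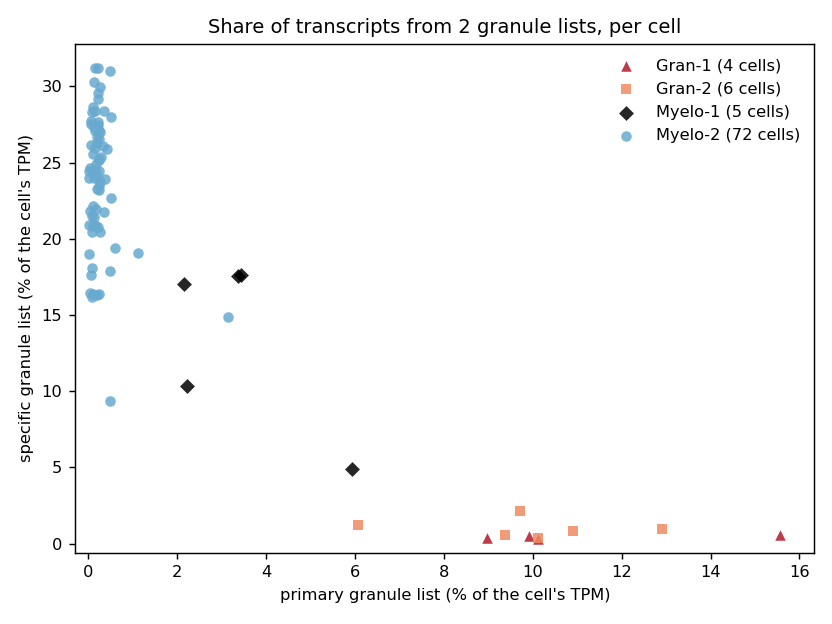
Share of each cell's TPM taken by the primary granule list (horizontal, %) and the specific granule list (vertical, %), with 1 point per cell. The 5 Myelo-1 cells lie at 2.16 to 5.93% and 4.91 to 17.6%, between the Gran cells at the lower right and most Myelo-2 cells at the upper left, with 1 Myelo-2 cell (Ly6g low cell 36, 3.15%) among them.

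Among the 12 genes with the highest ratios by the rule for named genes, 4 were primary granule genes (Mpo, Ctsg, Elane and Prtn3). Hnmt, the enzyme that methylates histamine, was at 60.4, 235, 295 and 86.3 TPM in Ly6g low cells 14, 15, 41 and 42 and at 0.31 TPM in CD11b+ cell 40. In 72 of 72 Myelo-2 cells it was at or below 0.62 TPM, so all 4 Ly6g low Myelo-1 cells stood apart and the CD11b+ cell did not. Its log2 ratio was 7.06. The Gran classes carried Hnmt too, with means of 68.7 TPM in Gran-1 and 148 TPM in Gran-2 against 135 TPM in Myelo-1. Gstm1, a glutathione transferase, was at 57.8, 218, 1819, 1390 and 768 TPM, against a Myelo-2 median of 0 and a highest value of 583 TPM. Its mean was 851 TPM in Myelo-1 and higher in Gran-1 and Gran-2, at 4394 and 3932 TPM. The other genes were each undetected in at least 1 Myelo-1 cell. They were Htt (huntingtin), Trim35, Dnajb12 (a co-chaperone), Rbm14 (an RNA-binding protein), Blzf1 (a Golgi protein) and Nagpa (an enzyme of lysosomal sorting), with log2 ratios from 4.18 for Nagpa to 4.88 for Htt. For Blzf1 the ratio was 1.88 without cell 41, for Dnajb12 2.66 without cell 41 and for Nagpa 2.05 without CD11b+ cell 40.

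At the lower end were genes at 0 or low TPM in most Myelo-1 cells. Ifitm6, an interferon-induced transmembrane protein, was at 0.73, 2.02, 1.89, 1.88 and 0 TPM in cells 14, 15, 41, 42 and 40. Its Myelo-2 median was 630 TPM and its highest value 4387 TPM, with 67 of 72 cells detected. Its relative Ifitm3 was at 0.81 TPM or lower in every Myelo-1 cell and had a Myelo-2 median of 500 TPM. The log2 ratios were -8.79 and -9.00. Plbd1, a phospholipase-like granule protein, was at 0.46 TPM or lower in every Myelo-1 cell and had a Myelo-2 median of 128 TPM. St3gal5, the enzyme that makes the ganglioside GM3, was at 0.30 TPM or lower, against a median of 52.3 TPM. Pirb, an inhibitory immunoglobulin-like receptor, reached 4.08 TPM in CD11b+ cell 40 and 0.15 TPM or less in the others, against a median of 55.3 TPM. Each of these genes had Myelo-2 cells at 0 as well, so the classes overlapped at the low end.

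Ly6g, which encodes the surface protein of the sort, was at 1.80 TPM in cell 42 and 0 in the other 4 Myelo-1 cells. Its Myelo-2 median was 3.45 TPM and its highest value 5384 TPM, and 28 of 72 Myelo-2 cells were at or below cell 42. The calcium-binding S100a6 was listed at 0 in all 5 Myelo-1 cells. The actin-capping Capg, the receptors Cd300lf and Gp49a and the sulfide-oxidising enzyme Sqrdl completed this group, with log2 ratios of -6.90 for Capg, -5.93 for Cd300lf, -5.75 for Gp49a and -5.65 for Sqrdl. Cell 15 held 5.89 TPM of Gp49a and 14.1 TPM of Sqrdl, and without it these ratios were -6.72 and -7.53. Gp49a and Pirb belong to families of near-identical receptor genes, so their reads may be split or shared.

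**Figure D3:**
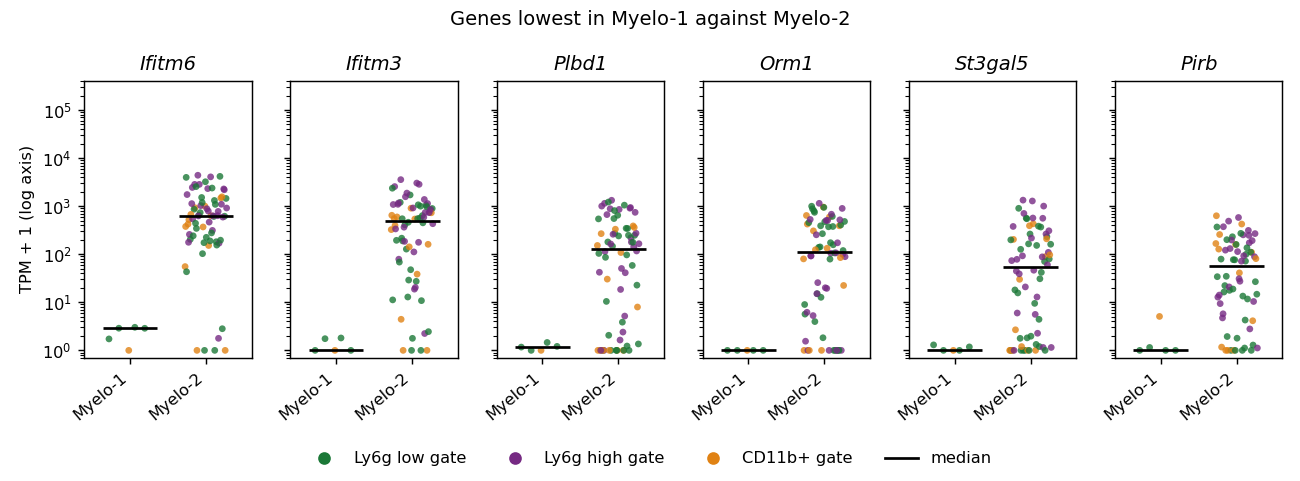
TPM plus 1 on a log axis for 6 of the genes lowest in Myelo-1, with 1 point per cell coloured by gate and a bar at the class median. All 5 Myelo-1 cells lie at or below 4.08 TPM for each gene, while Myelo-2 medians run from 52.3 TPM for St3gal5 to 630 TPM for Ifitm6.

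The calprotectin subunits were already abundant. S100a8 was at 156506, 111081, 81278, 82289 and 112017 TPM in cells 14, 15, 41, 42 and 40, against a Myelo-2 median of 141565 TPM (range 50418 to 250312). S100a9 was at 127983, 94933, 64710, 70787 and 82694 TPM, against a median of 156978 TPM (range 58680 to 259129). Both lay within the Myelo-2 range in every Myelo-1 cell, with log2 ratios of -0.48 and -0.85. Lysozyme was lower, with Lyz2 at 4464 and 16523 TPM on average and a log2 ratio of -1.89, the same as for its near-identical copy Lyz1, with which it may share reads. Of the 9 genes on this list of abundant neutrophil proteins, all measured, 0 were 2-fold higher and 4 were 2-fold lower (Lyz2, Lyz1, Lgals3 and S100a6), where 35.1% and 15.3% of all measured genes were, with a median of -0.85.

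Of 22 late neutrophil genes, 11 were below 1 TPM in every Myelo-1 cell. Since each Myelo-1 cell detected only 2651 to 4174 of 23946 genes, this count alone does not set the list apart from other genes. Mmp9, the gelatinase, reached 0.13 TPM in Myelo-1, while its Myelo-2 median was 0.14 TPM and its highest value 879 TPM. The resistin-like Retnlg had a mean of 9.81 and 156 TPM. Cxcr2, the receptor for neutrophil-attracting chemokines, stood at 72.1 and 18.5 TPM (log2 ratio 1.91, and 0.87 without cell 42, which held 222 TPM), and was named after its values were seen as the list's only higher gene. On this list 11 genes were measured, 1 higher and 4 lower by 2-fold or more (35.1% and 15.3% of all measured genes), with a median of -0.54. In the Ly6g low gate alone that median was 0.16. The 6 genes of the NADPH oxidase, which makes superoxide, were all measured and had a median of -0.19. Only its catalytic subunit Cybb passed 2-fold, with 476 TPM in Myelo-1 and 1049 TPM in Myelo-2 (-1.14).

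Many but not all measured genes of protein production had higher means in Myelo-1. Of 22 endoplasmic reticulum genes 18 were measured, 11 of them at least 2-fold higher and 1 lower (35.1% and 15.3% of all measured genes), with a median of 1.29. The chaperones Hspa5 and Hsp90b1 were at log2 ratios of 0.02 and 0.05, and the co-chaperone Dnajb11 at -1.08. These members, outside the rule for named genes, were chosen after their values were seen. Ssr4, of the translocon-associated complex, had means of 477 and 53.8 TPM, the folding enzyme Pdia6 of 241 and 31.6 TPM, and the stress-induced Sdf2l1 of 73.7 and 4.001 TPM. Ssr4 was at 0.75 TPM in cell 15. Cell 41 held most of the Sdf2l1, with 306 TPM, and without it the log2 ratio was 1.74 in place of 3.90. Without the same cell Pdia6 was at 1.88 in place of 2.89. Of 20 ribosome assembly genes 12 were measured, 9 higher and 1 lower (Dkc1, of the pseudouridine synthase complex, at -1.94), against the same shares of all measured genes, with a median of 1.63. Mybbp1a, a nucleolar protein, was at 18.8, 16.7 and 11.5 TPM in cells 15, 41 and 40, at 0 in cells 14 and 42, and at or below 0.12 TPM in every Myelo-2 cell. In 8 of the endoplasmic reticulum genes and 0 of the ribosome assembly genes every Myelo-1 cell was above the Myelo-2 median (14.3% of all measured genes). The larger number of genes detected in Myelo-1 accompanied these differences, and its part in them was not tested.

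**Figure D4:**
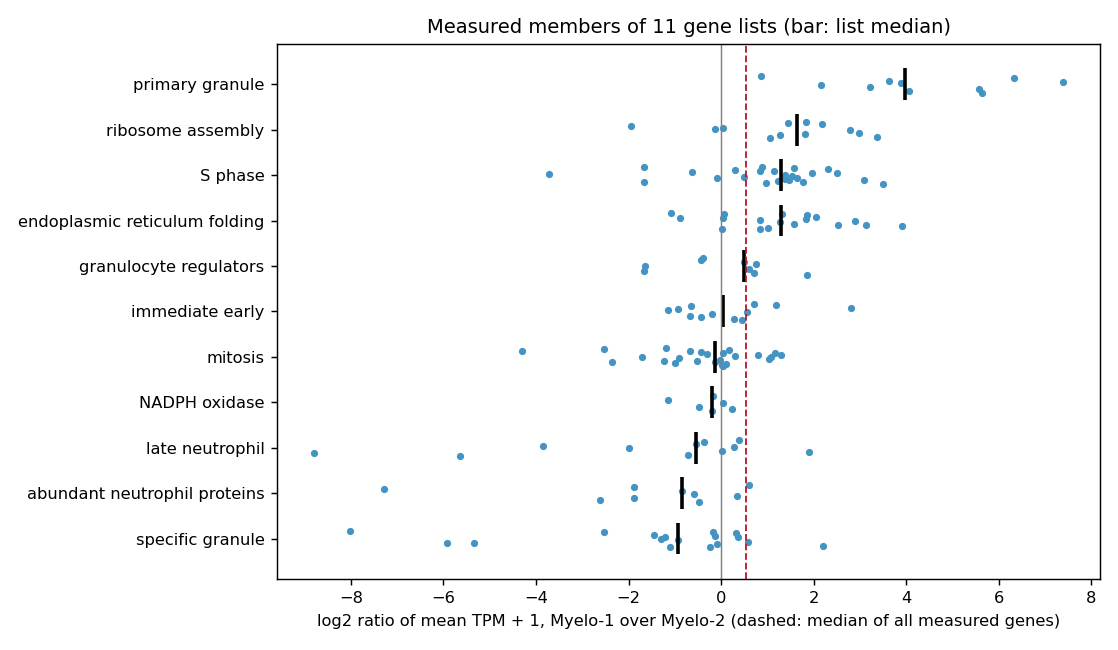
Log2 ratio of mean TPM plus 1, Myelo-1 over Myelo-2, for the measured members of 11 gene lists, with 1 point per gene, a bar at each list median and a dashed line at the median of all measured genes (0.53). Primary granule genes lie furthest right (median 3.98), and the specific granule list (median -0.94) reaches up to 2.20 for Fcnb. Genes listed at 0 in Myelo-1 (Orm1 and S100a6) are drawn where the added 1 TPM places them.

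The Myelo-1 cells differed from each other in cell cycle genes. Cell 14 had a sum of 1182 TPM over the S phase list and 4764 TPM over the mitosis list. Cells 15 and 42 were the reverse, with 6697 and 7048 TPM of S phase and 1689 and 1933 TPM of mitosis genes. Cell 41 had 4791 and 4381 TPM, and CD11b+ cell 40 had 3388 and 687 TPM. The Myelo-2 medians were 1569 TPM (range 1.19 to 7632) and 2797 TPM (range 1.25 to 7842), so all 5 cells lay within the Myelo-2 range on both. Mcm2, a subunit of the replicative helicase, was at 0, 166, 93.8, 207 and 87.4 TPM in cells 14, 15, 41, 42 and 40, with a Myelo-2 median of 0 and a highest value of 135 TPM. Its log2 ratio was 3.50. Plk1, a kinase of mitosis, was at 331, 0, 387, 206 and 0 TPM, so it was high in cell 14 and at 0 in cell 15. Plk1 was chosen after its values were seen.

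Of 27 S phase genes 24 were measured, 14 higher and 3 lower by 2-fold or more (35.1% and 15.3% of all measured genes), with a median of 1.31, or 0.78 after centring. In the Ly6g low gate alone the S phase median was 1.16. The replication licensing factor Cdt1, at 101 and 10.9 TPM (log2 ratio 3.10, and 1.94 without CD11b+ cell 40), and Mcm3 of the replicative helicase, with means of 269 and 46.5 TPM, were among the highest, and the polymerase subunit Pold1 among the lowest, at 0.17 and 14.5 TPM. All 25 mitosis genes were measured, 4 higher and 6 lower, with a median of -0.12. Mki67, the proliferation antigen, was at 138, 80.7, 60.95, 80.4 and 1.01 TPM, around its Myelo-2 median of 63.1 TPM, and Top2a, topoisomerase II alpha, had a log2 ratio of 0.03.

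**Figure D5:**
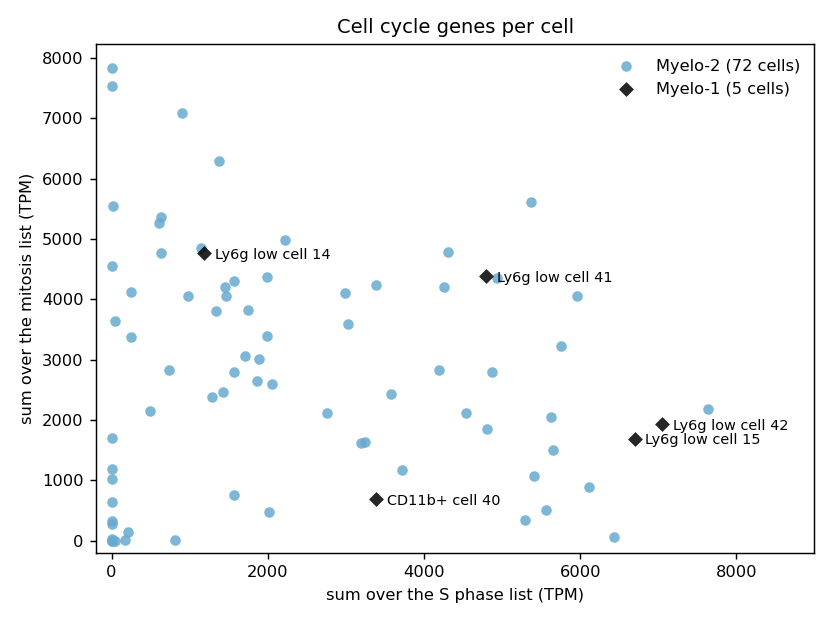
Sum of TPM over the S phase list (horizontal) and the mitosis list (vertical) for each Myelo-1 and Myelo-2 cell. The labelled Myelo-1 cells are spread over the Myelo-2 points, from cell 14 at 1182 and 4764 TPM to cell 42 at 7048 and 1933 TPM.

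No measured transcription factor of the lineage had classes without overlap, and only 1 of all 4951 measured genes did (0.0202%). Cebpe, the regulator of specific granule genes, was at 85.1, 32.1, 122, 136 and 5.46 TPM in cells 14, 15, 41, 42 and 40, against a Myelo-2 median of 51.985 TPM (highest 606). Cebpa, its relative of earlier stages, was at 74.95 TPM in cell 41 and at 1.47 TPM or less in the others, and was detected in 2 of 72 Myelo-2 cells. The log2 ratio of Cebpa was 1.85, and -1.73 without cell 41. Gfi1, a repressor needed for neutrophil formation, was at 21.1 TPM in cell 41, 1.75 TPM in cell 14 and 0 in the others, with a log2 ratio of -1.65 over all gates and 0.24 in the Ly6g low gate. Irf8, a factor of monocyte fate, was listed at 0 in all 5 and was detected in 0 of 72 Myelo-2 cells. Of 16 regulators 9 were measured, 1 higher and 2 lower by 2-fold or more (35.1% and 15.3% of all measured genes). Their median was 0.50, close to that of all measured genes.

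Kit was at 1.19 TPM in cell 41 and 0 in the others, although the marrow had been enriched for its protein, and Cd34 was at 0 in all 5. Kit was detected in 12 and Cd34 in 1 of 72 Myelo-2 cells. Cd63, a tetraspanin of granule membranes that stood on the progenitor list, was at 2802, 3017, 3765, 3320 and 2855 TPM, and 2 Myelo-2 cells reached that range (median 646). Plac8, a gene of early myeloid cells, was at 1228 and 375 TPM on average. Of 14 genes on the list 3 were measured, 2 of them 2-fold higher (35.1% of all measured genes were), with a median of 1.71. Itgam, which encodes CD11b, was at 4.46, 134, 77.5, 314 and 20.4 TPM, with a Myelo-2 median of 92.03 TPM.

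Most listed markers of other cell types were below 1 TPM in every Myelo-1 cell. The monocyte list had a sum of 2525 to 7638 TPM in Myelo-1 and 287 to 6149 TPM in Myelo-2. Ly6c2, which neutrophil precursors also express and which has a near-identical neighbour, gave most of it, at 2557, 2513, 4047, 3120 and 7482 TPM in cells 14, 15, 41, 42 and 40. Of the 16 genes on this list 11, including Csf1r, Irf8, Ly86 and F13a1, were below 1 TPM in every Myelo-1 cell. The 4 measured genes had 2 higher and 2 lower by 2-fold or more (35.1% and 15.3% of all measured genes), with a median of -0.14. The sums in Myelo-1 and Myelo-2 reached 277 and 3378 TPM for macrophage genes, 99.4 and 880 TPM for dendritic cell genes, and 417 and 2417 TPM for erythroid genes. They reached 124 and 313 TPM for megakaryocyte, 299.6 and 1897 TPM for basophil and mast cell, and 71.4 and 1665 TPM for eosinophil genes. For B cell genes they reached 274 and 435 TPM, and for T and NK cell genes 1.41 and 30.3 TPM. The lowest sum was 0 in both classes for each of these lists except the basophil and mast cell list in Myelo-1 (4.94 TPM), which holds Hdc, also a neutrophil gene. Below 1 TPM in every Myelo-1 cell were 9 of 10 macrophage, 9 of 10 dendritic, 10 of 12 erythroid and 9 of 10 megakaryocyte genes. So were 8 of 10 basophil and mast cell, 7 of 9 eosinophil, 9 of 10 B cell and 10 of 11 T and NK cell genes, with C1qa, Siglech, Gata1, Pf4, Prss34, Epx and Cd3e among them. Of these 8 lists at most 2 members each were measured. Among them Vcam1, Car2, Tfrc, Gp9, Il3ra and Siglec5 were at least 2-fold higher in Myelo-1, as 35.1% of all measured genes were. Their log2 ratios were 2.54, 1.67, 1.53, 4.99, 1.36 and 1.68. The macrophage gene Vcam1 reached 277 TPM in cell 15, and the erythroid gene Car2 417 TPM in cell 40. Hdc stood at 0.27, and the eosinophil gene Ear2 was listed at 0 in every Myelo-1 cell. The share of all 23946 genes that were below 1 TPM in every Myelo-1 cell was not counted. Each of these cells detected only 2651 to 4174 genes, so such counts alone do not set these lists apart.

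Within the Ly6g low gate, 4 Myelo-1 cells stood against 31 Myelo-2 cells. The filter then needed only 1 Myelo-1 cell and 6936 genes were measured, of which 38.7% were at least 2-fold higher and 17.7% at least 2-fold lower. There 9 of 11 measured primary granule genes were higher and 1 lower, with a median of 3.39, and of 17 specific granule genes 1 was higher and 9 lower, with a median of -1.16. Elane stood at a log2 ratio of 4.60, Mpo at 6.84, Fcnb at 2.003, Camp at -0.54, Ngp at -1.28, Lcn2 at -2.46 and Ltf at -6.35. Itgam was at 0.06 there and -0.46 over all gates. The only CD11b+ Myelo-1 cell had more Camp and Ltf than the other 4. No run or plate is named for the cells, so any part of these cannot be told apart from that of the gate.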

How the data were processed

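Values deposited by the authors are on the log2(TPM + 1) scale for 23946 genes in 127 cells. That scale was read from the values, since the back-transformed TPM summed to between 999633 and 1005380 in every cell. Bowtie2, RSEM and the build mm9 are named in the submitters' processing notes, with versions and annotation not given in the sources used here. Class names came from another file of the authors. Paired reads of 150 bp were taken from pools of 96 cells, per the labels. The number of columns without a sample was 0.

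Values were turned back to TPM in Python 3.11.15 (numpy 2.4.6, pandas 2.3.3), and class means were compared as the report describes. TPM keeps no read depth, so precision is described by cells and genes detected. Identical columns among the cells compared numbered 0. No test was run, so replicate numbers pair nothing. The calculation of ratios was tested by multiplying genes in some Myelo-2 cells by known factors, and the other steps were not tested so. The classes and 21 gene lists were chosen with earlier results of these data known.

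The rule for named genes took 21 fixed genes, all granule list members, up to 4 members of every other list, and the 12 highest and 12 lowest ratios. These last had at least 10 TPM on average in 1 of the classes, a ratio of size 1 or more with each Myelo-1 cell left out, and a difference of median log2(TPM + 1) of size 1 or more. The rule skips predicted loci, mitochondrial genes, microRNAs, small nucleolar RNAs and ribosomal proteins. The rule's conditions held for 404 genes higher and 58 lower. Promoters came from RefSeq, and no coordinates of the deposited data are given because its build differs from the reference. Alternatives covered the gate, each Myelo-1 cell left out, genes detected, kind of mean, pseudocounts of 0.1 and 10 TPM, filters, rescaling and the highest Myelo-2 cell. Centring on the median of all measured genes was chosen after seeing the data.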

Additional observations from a re-analysis of the deposited data

Results flagged for a closer look

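Over the 5 Myelo-1 cells 111 quantities were checked (genes, list sums and the number of genes detected). In 27 of them, all single genes, 1 cell stood apart, its gap to the next cell exceeding 0.71 of the range (Dixon's critical value). This critical value flags about 1 in 20 groups by chance only where values follow a normal distribution. That was not tested for these TPM values, so no number of flags expected by chance is given. Genes at 0 in the other cells meet this rule at any level. The number of such genes per cell has no test.

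Ly6g low cell 41 was the high cell for Kit (1.19 TPM), Gfi1 (21.1 TPM), Cebpa (74.95 TPM), Dnajb12 (133 TPM), Blzf1 (161 TPM), Mmp9 (0.13 TPM), Bub1b (31.3 TPM), Sdf2l1 (306 TPM), Btg2 (409 TPM) and Siglec5 (31.5 TPM). It was also the Myelo-1 cell with the most genes detected (4174). Ly6g low cell 42 was the high cell for Ly6g (1.80 TPM), Ctsc (5 TPM), Retnlg (41.4 TPM), Fpr2 (234 TPM), Lgals3 (139 TPM), Ier3 (312 TPM) and Cd14 (563 TPM).

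Ly6g low cell 15 was the high cell for Gp49a (5.89 TPM), Sqrdl (14.1 TPM), Olfm4 (0.28 TPM), Nolc1 (76.98 TPM) and Tfrc (79.9 TPM). CD11b+ cell 40 stood apart for Nagpa (312 TPM), Pirb (4.08 TPM), Mcemp1 (783 TPM) and Gp9 (124 TPM), and Ly6g low cell 14 for Ccnf (8.63 TPM).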

How the results depend on the processing

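With 5 Myelo-1 cells and no animal named, precision is limited by the number of cells. No paired analysis was possible because no result comes from a test and the numbers in cell names only name cells. The 1736 genes at least 2-fold higher became 2686 in the Ly6g low gate, 3053 with mean log2 values, 1071 after rescaling without granule genes and 1092 after centring, and 2202 to 2530 with 1 Myelo-1 cell left out. The 757 lower became 1231 in that gate, 1415 against Myelo-2 cells matched in genes detected, 205 with mean log2 values, 110 with medians, 440 with 10 TPM added, 3132 without a filter, 346 with a filter at 10 TPM and 1150 after centring. With 1 cell left out it was 1235 to 1389, since 1 of 4 cells then passes the 25% filter. In the Ly6g low gate 3917 genes passed 2-fold either way, and 2368 with 10 TPM added. The primary granule median of 3.98 was 2.37 against the matched cells, 7.56 with mean log2 values, 9.01 with medians and 5.09 without each gene's highest Myelo-2 cell, and 3.29 to 4.23 with 1 cell left out. The S phase median of 1.31 was 3.57 with medians.

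Of 80 named genes at 2-fold or more, 58 kept their sign in all 16 alternatives and 45 also stayed at 2-fold or more in each. Signs reversed for Gfi1 (0.24 in the Ly6g low gate, 1.66 against the matched cells, 0.49 with mean log2 values), Cebpa (-0.21), Fpr2 (0.40) and Lgals3 (1.64) against the matched cells, and Car2 in the Ly6g low gate (-0.93). With medians they did for Retnlg (0.59), Pold1 (0.16), Kif23 (0.86), Btg2 (0.74) and Psap (0.97), and with mean log2 values for Psap (0.43). With 1 cell left out Cebpa ranged from -1.73 to 2.15, Nolc1 from -0.49 to 2.49, Cd14 from -3.10 to 2.10, Tfrc from -0.53 to 1.84 and Siglec5 from -0.72 to 1.96. Apart from the filter, the cause was not tested.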

Other observations

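Immediate early genes, which cells switch on quickly after stimulation or handling, varied between Myelo-1 cells and not as a block between the classes. Of 19 genes 12 were measured, 2 higher and 1 lower by 2-fold or more (35.1% and 15.3% of all measured genes), with a median of 0.04. Fos was at 248, 51.5, 1014, 211 and 54.1 TPM in cells 14, 15, 41, 42 and 40, against a Myelo-2 median of 64.7 TPM (highest 2334). Egr1 was at 501 and 165 TPM in cells 41 and 42 and at 0.11 TPM or less in the others. Fos and Egr1 were chosen after their values were seen.

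Besides Fcnb, Itpripl2 and Taf15 had a Myelo-1 mean at least 2-fold above both the Gran and the Myelo-2 mean and a lowest Myelo-1 cell above every Gran cell. Their levels were low, with a mean of 16.04 TPM for Itpripl2 and 24.04 TPM for Taf15, and lowest Myelo-1 cells at 1.70 and 1.42 TPM. Gp9, a platelet receptor subunit, was at 30.8 and 124 TPM in cells 42 and 40 and at 0 in all Myelo-2 cells, while Pf4 was below 1 TPM in every Myelo-1 cell.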
